A study of Arabidopsis thaliana with 10 samples.

Results

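Seedlings of the atbmi1b single mutant of Arabidopsis thaliana were compared directly with seedlings of the atbmi1a single mutant, using 4 of the 10 RNA-seq libraries of the series and all 27086 loci. Both genotypes are in the Columbia (Col-0) accession and were sampled as seedlings at 10 DAG (days after germination), with no treatment named in the labels. The groups are 2 libraries labelled atbmi1a and 2 labelled atbmi1b, each a single mutant of the gene in its name per the labels. Wild type libraries enter no difference given here, so a gene described as higher in atbmi1b may equally be one that is lower in atbmi1a. The labels do not give the alleles, and nor whether replicate libraries are separate plantings, so every error below is the spread between libraries, which may be technical. In RNA from seedlings in bulk, fewer cells of a type and less RNA per cell cannot be told apart.

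AtBMI1A and AtBMI1B are RING-finger subunits of Polycomb repressive complex 1. With the RING1 proteins they place ubiquitin on histone H2A at genes that are kept silent, among them the seed maturation genes that are shut down when a seedling germinates. The proteins are close relatives, and a plant lacking either one looks far more normal than a plant lacking both, which keeps embryonic traits.

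The values are FPKM (fragments scaled to transcript length and to the mapped total of the library). A log2 difference is always the mean of log2(FPKM + 1) in atbmi1b minus that in atbmi1a, a scale that understates changes of weakly expressed genes, and the 18756 loci averaging 1 FPKM or more across these libraries were tested with limma. With the 4 libraries alone, limma called 0 loci at a Benjamini-Hochberg adjusted p under 0.05, the lowest adjusted p being 0.0637, while 3795 loci (20.2%) had an unadjusted p under 0.05, 1835 of them higher (9.78%) and 1960 lower (10.4%) in atbmi1b. The groups did not overlap at 10204 loci (54.4%), with atbmi1b above at 4646 (24.8%) and below at 5558 (29.6%). The gap between them exceeded 1 on the log2 scale at 117 loci upward (0.624%) and 107 downward (0.57%). The same difference, with its spread estimated from all 10 libraries in 1 limma fit, called 800 loci higher (4.27%) and 696 lower (3.71%) in atbmi1b, and this 10-library fit is the one meant by "called" from here on. It has 5 rather than 2 residual degrees of freedom and assumes that the single mutants vary like the other genotypes. The libraries labelled atbmi1a varied more, differing by more than 1 on the log2 scale at 1007 tested loci. That count was 111 in atbmi1b, 125 in wild type, 131 in the strong double mutant and 460 in the triple mutant. The fit may therefore understate the error of the libraries labelled atbmi1a. Its calls rest on both atbmi1b libraries: without atbmi1b replicate 1 the fit called 228 higher and 117 lower, and without replicate 2 it called 93 and 82.

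The mutated genes came first. AtBMI1B (AT1G06770, chromosome 1, 2078880 to 2082097 in TAIR10.1) was at 7.86 and 7.76 FPKM in the libraries labelled atbmi1a and at 0.182 and 0.108 FPKM in atbmi1b. It was lower in both atbmi1b libraries by a wide margin (log2 difference -2.95 ± 0.12 SE, adjusted p = 0.000129). AtBMI1A (AT2G30580, chromosome 2, 13025911 to 13030661) was at 26.8 and 33.4 FPKM in the libraries labelled atbmi1a and at 7.41 and 7.46 FPKM in atbmi1b. The libraries labelled atbmi1a thus held more AtBMI1A RNA than atbmi1b (-1.87 ± 0.16, adjusted p = 0.00229), which is not what a loss of that gene's RNA would give. FPKM per locus does not show which stretch of the gene was read, so AtBMI1A does not check that label, and every direction below is against libraries so labelled. AtBMI1C, the third family member, stayed under 0.21 FPKM in all 4 libraries and was not tested.

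Of 15 tested Polycomb components, the 2 mutated genes were the only calls, both lower, where 7.98% of all tested loci were called. On so short a list the lack of further calls is not a result. The list's median log2 difference was -0.06 against -0.03 over all tested loci. Both atbmi1b libraries lay below both libraries labelled atbmi1a at 8 of the 15, the 2 mutated genes included, and above at 4. Over all tested loci these shares were 29.6% and 24.8%. RING1A, a RING1 partner of the BMI1 proteins, was at 5.74 and 5.44 FPKM in the libraries labelled atbmi1a and at 3.87 and 3.76 in atbmi1b, a separation that did not pass the test (-0.45 ± 0.14, adjusted p = 0.0873). CLF, a histone H3 methyltransferase of Polycomb repressive complex 2, was at 10.4 and 9.40 FPKM against 8.46 and 7.89 (-0.25 ± 0.14, adjusted p = 0.294).

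Seed transcripts separated the 2 libraries labelled atbmi1a from each other, not the genotypes. The 24 seed storage and oil body genes of the list summed to 3553 FPKM in replicate 1 labelled atbmi1a, to 65.5 in its replicate 2, and to 104 and 61.5 FPKM in atbmi1b. CRA1, which encodes a 12S cruciferin storage protein, was at 588 and 9.17 FPKM in the libraries labelled atbmi1a and at 14.2 and 8.40 FPKM in atbmi1b. Replicate 1 labelled atbmi1a was the highest of the 4 libraries at 19 of the 21 tested genes, with a median excess of 5.04 on the log2 scale over its own replicate. OLEO1, an oil body oleosin, followed the same order at 352, 4.41, 8.91 and 3.93 FPKM. CRU3, another cruciferin, was at 544 and 10.05 FPKM against 13.9 and 9.21, and SESA1, a 2S albumin, at 95.8 and 3.14 against 3.67 and 2.97. EM6, a late embryogenesis abundant protein gene that did not pass the filter, was at 0.311 and 0.122 FPKM against 0.278 and 0.745. The list's median log2 difference was -2.36, and it was 0.16 once that library was left out. None of the 21 was called in either case.

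**Figure D1:**
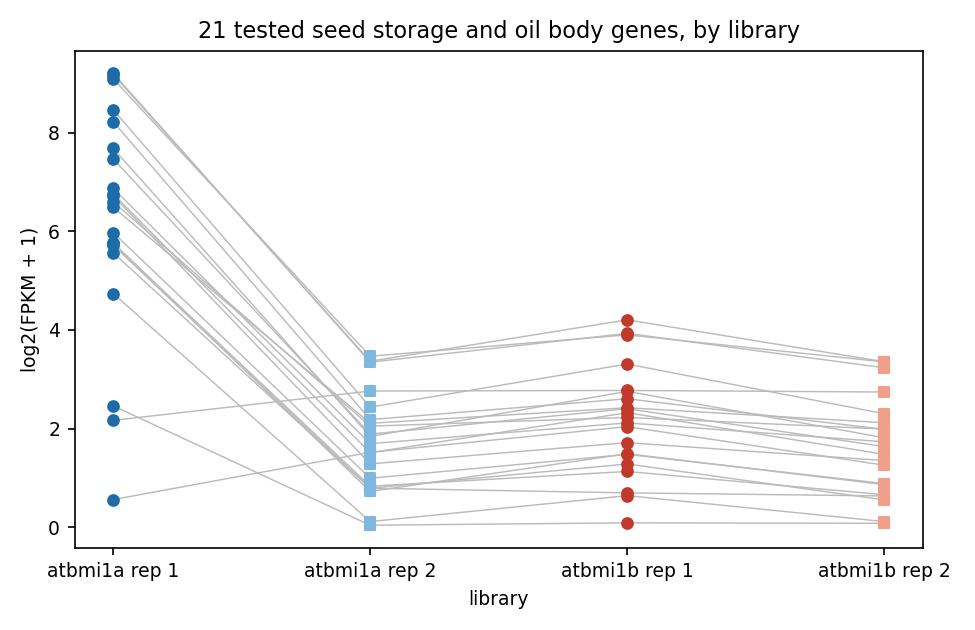
Level of the 21 tested seed storage and oil body genes, log2(FPKM + 1) on the vertical axis, in each of the 4 libraries, with a grey line joining each gene. At 19 genes the library labelled atbmi1a replicate 1 sits above the other 3, which lie close together.

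Regulators of embryo development showed a smaller form of the same split. FUS3, a B3-domain activator of seed maturation, was at 3.48 FPKM in replicate 1 labelled atbmi1a and at 0.045 in its replicate 2, against 0.153 and 0 FPKM in atbmi1b. ABI3, the abscisic acid response factor of the same family, was at 2.31 and 0.019 FPKM against 0.088 and 0.039. LEC2 did not follow, at 0.178 and 0.047 FPKM against 0.215 and 0.095. Only 6 of the 16 regulators passed the filter on low values, and none was called.

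The calls were therefore set against that library. Losses of named calls are given below for leaving it out only. Many other named calls were lost under other settings. Among them were those of bHLH38, bHLH39, PR1, APR1, APR3, ASN1, TPS11, PHYA, CRY2, 4CL3, CHI, LHCA4 and SCR. A call given below without a loss may therefore not have held under every setting. At 1007 loci the 2 libraries labelled atbmi1a differed by more than 1 on the log2 scale, replicate 1 being higher at 361 and replicate 2 at 646, compared with 111 such loci in atbmi1b. Among the 1496 calls (7.98% of tested loci) 19 were at such loci, and none belonged to the seed storage or embryo lists; the test itself makes calls rare where replicates lie far apart, so this count describes the calls and does not check them. Without replicate 1 labelled atbmi1a, 1044 of the 1496 calls (69.8%) were still called, 609 higher and 435 lower. The fit without it also called 892 loci that had not been called, so that its totals were 1077 higher (5.74%) and 859 lower (4.58%). Of the calls past 1 on the log2 scale, 205 of 228 higher and 139 of 168 lower ones were among the calls that stayed.

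**Figure D2:**
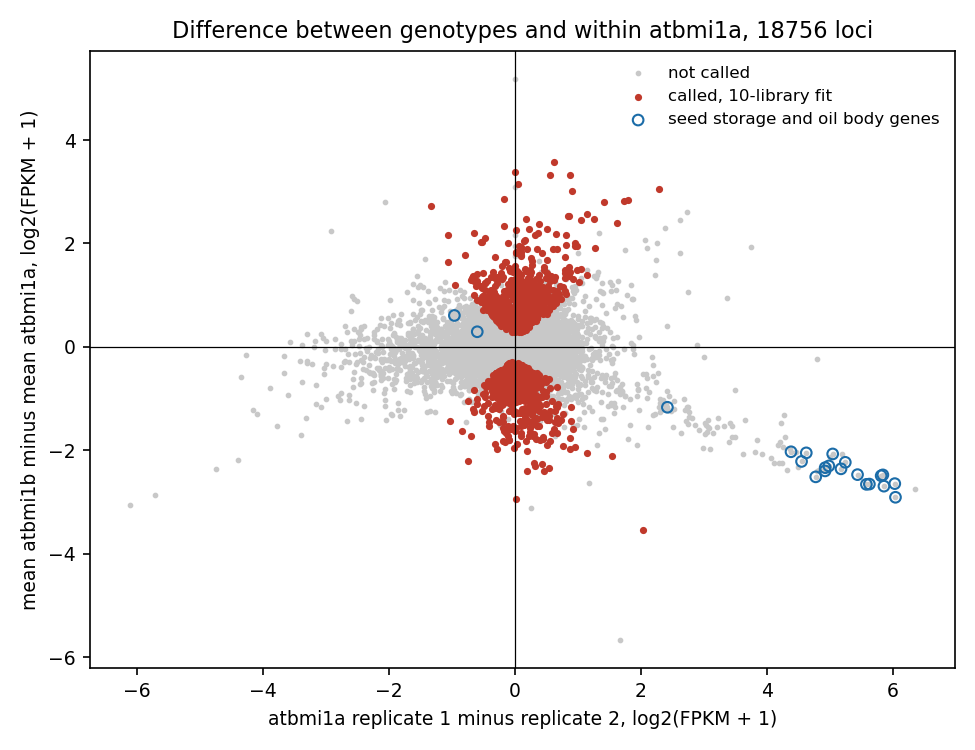
Each point is 1 of 18756 loci, with replicate 1 minus replicate 2 of the libraries labelled atbmi1a on the horizontal axis and the difference between genotypes on the vertical axis, both in log2(FPKM + 1). Called loci (red) gather near 0 on the horizontal axis, since a wide replicate spread lowers the chance of a call, 19 of them lying beyond 1 on either side, while most seed storage and oil body genes (circles) lie at the far right and are not called.

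The highest called differences in atbmi1b included several genes of sulfate assimilation. LSU2, a member of the RESPONSE TO LOW SULFUR family of small proteins that accumulate when sulfur is short, was at 6.56 and 3.89 FPKM in the libraries labelled atbmi1a and at 50.8 and 99.1 FPKM in atbmi1b. This was the largest called rise in the comparison (3.57 ± 0.40, adjusted p = 0.00479). The 3 APS reductases, which turn activated sulfate into sulfite, were all called higher. APR3 was at 33.2 and 11.8 FPKM in the libraries labelled atbmi1a and at 119 and 175 in atbmi1b (2.80 ± 0.41, adjusted p = 0.0098). APR2 was at 79.9 and 44.3 FPKM against 279 and 433 (2.53 ± 0.29, adjusted p = 0.00488). APR1 was at 31.3 and 14.7 FPKM against 106 and 143 (2.46 ± 0.33, adjusted p = 0.00753). The groups overlapped at none of the 1496 calls, so the separation of these 4 genes is no further support. In all 4 genes replicate 1 labelled atbmi1a lay above its replicate 2.

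A list of 19 sulfate assimilation and low-sulfur genes was then drawn up after these values had been seen, and it is a description only. Of its 17 tested members 6 were called higher (4.27% of all tested loci were) and 1 lower (3.71%). The median log2 difference was 1.04, against -0.03 over all tested loci. Called higher with the 4 genes above were SHM7, a serine hydroxymethyltransferase, at 20.8 and 10.2 FPKM against 51.5 and 68.2 (1.94 ± 0.33, adjusted p = 0.0155), and SLIM1, a transcription factor of the low-sulfur response, at 7.90 and 9.79 against 12.8 and 13.0 (0.50 ± 0.11, adjusted p = 0.0381). SULTR2;1, a sulfate transporter of the vasculature, was the 1 called lower, at 34.0 and 27.9 FPKM against 12.1 and 13.5 (-1.20 ± 0.24, adjusted p = 0.0274). SDI1, LSU1 and LSU3, also known to respond to low sulfur, had higher values in both atbmi1b libraries but missed the threshold. For LSU1 they were 7.73 and 1.08 FPKM against 14.6 and 19.7 (adjusted p = 0.0876), with the libraries labelled atbmi1a far apart. APS1, an ATP sulfurylase acting upstream of the reductases, overlapped between groups at 300.1 and 246 FPKM against 260.0 and 243. On this list replicate 1 labelled atbmi1a lay above its replicate 2 by a median of 0.84 on the log2 scale. Without replicate 1, the calls of SLIM1 and SULTR2;1 were lost, and the list's median log2 difference was 1.85. That larger value follows from which library was kept and is no further support.

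Iron-deficiency genes were the other nutrient group near the top. The subgroup Ib transcription factors bHLH38 and bHLH39, neighbours on chromosome 3 that work with FIT in the iron-deficiency response, both stood higher in atbmi1b. bHLH38 was at 4.31 and 1.39 FPKM in the libraries labelled atbmi1a and at 27.4 and 14.6 in atbmi1b (2.56 ± 0.44, adjusted p = 0.0159). bHLH39 was at 4.45 and 0.563 FPKM against 23.53 and 16.8 (2.84 ± 0.50, adjusted p = 0.017). BHLH100 and BHLH101, of the same subgroup, were not called, and nor was FIT (adjusted p = 0.2). BHLH100 was at 9.96 and 0.773 FPKM against 39.4 and 13.5 (adjusted p = 0.102). BHLH101 overlapped between groups, at 13.6 and 1.17 FPKM against 12.5 and 9.09 (adjusted p = 0.407). PYE, another bHLH regulator of iron homeostasis, was at 18.3 and 14.4 FPKM against 80.0 and 72.4 (2.16 ± 0.21, adjusted p = 0.00268). OPT3, an oligopeptide transporter family member that loads iron into the phloem, was at 88.7 and 39.7 FPKM against 175 and 140.0 (1.38 ± 0.32, adjusted p = 0.0391). NAS4, a nicotianamine synthase, was at 19.4 and 10.8 FPKM against 40.6 and 35.3 (1.33 ± 0.25, adjusted p = 0.0225).

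The 5 calls were bHLH38, bHLH39, PYE, OPT3 and NAS4, all higher (4.27% of all tested loci were), among 16 tested members of a 17-gene iron list. It was also drawn up after values had been seen (median 1.06, against -0.03 over all tested loci). Genes of iron uptake at the root surface were not among the 5 calls. The iron transporter IRT1 was at 24.0 and 3.70 FPKM in the libraries labelled atbmi1a and at 12.6 and 14.2 in atbmi1b. The ferric reductase FRO2 was at 6.38 and 1.71 FPKM against 2.98 and 3.72. In both genes the libraries labelled atbmi1a lay on either side of the atbmi1b pair, so the difference turned on which of them was used. The log2 difference was 0.41 for IRT1 and -0.045 for FRO2. Without replicate 1 labelled atbmi1a it was 1.61 and 0.68. BTS, an E3 ligase that restrains the iron response, was at 49.7 and 20.2 FPKM against 103 and 68.4, and just missed the threshold (1.37 ± 0.36, adjusted p = 0.0586). On the iron list replicate 1 labelled atbmi1a lay above its replicate 2 by a median of 1.15 on the log2 scale. Leaving replicate 1 out sets atbmi1b against replicate 2 alone, and the list's median log2 difference was then 1.74. That larger value follows from which library was kept and is no further support. Other loci with no symbol were among the largest rises, such as AT1G47395, at 32.0 and 8.96 FPKM against 143 and 115 (2.83 ± 0.51, adjusted p = 0.0189), and AT1G47400, at 25.6 and 4.44 against 106 and 91.8 (3.05 ± 0.65, adjusted p = 0.0318).

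Promoters of the iron genes are shown because their bHLH products belong to a family that binds the G-box, CACGTG. The windows are the 250 bases before the annotated start in the RefSeq annotation of TAIR10.1, whose nuclear chromosomes are those of TAIR10, read 5′ to 3′ on the gene's strand, and capitals mark the G-box. bHLH38 (chr3:21085246-21085495, minus strand) holds 1 match, 97 bases before the start, and OPT3 (chr4:9250344-9250593, minus strand) holds 1, 78 bases before. bHLH39 (chr3:21087711-21087960, minus strand), shown as the neighbouring contrast, holds none, and neither do PYE and NAS4.
bHLH38: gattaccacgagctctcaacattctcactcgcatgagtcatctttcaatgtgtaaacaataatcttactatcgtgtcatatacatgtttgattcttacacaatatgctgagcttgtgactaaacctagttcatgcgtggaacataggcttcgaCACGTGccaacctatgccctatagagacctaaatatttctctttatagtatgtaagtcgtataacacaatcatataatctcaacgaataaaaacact
bHLH39: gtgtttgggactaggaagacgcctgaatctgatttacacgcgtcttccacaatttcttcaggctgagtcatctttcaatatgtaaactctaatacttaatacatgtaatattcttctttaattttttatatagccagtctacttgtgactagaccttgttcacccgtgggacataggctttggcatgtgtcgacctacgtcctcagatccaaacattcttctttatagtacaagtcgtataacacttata
OPT3: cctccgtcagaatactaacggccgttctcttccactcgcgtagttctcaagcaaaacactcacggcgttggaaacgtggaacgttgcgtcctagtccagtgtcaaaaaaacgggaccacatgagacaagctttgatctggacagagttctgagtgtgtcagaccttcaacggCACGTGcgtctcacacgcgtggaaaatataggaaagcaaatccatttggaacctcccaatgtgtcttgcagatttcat

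The G-box was in 1780 of all 27443 such promoters (6.49%) and in 5 of 17 on the iron list (29.4%). Its share was similar on 2 other lists, with 7 of 20 clock promoters (35%) and 7 of 23 flavonoid promoters (30.4%). GAGAC, the core of a sulfur-responsive element, was in 25.8% of all promoters and in 5 of 19 on the sulfur list (26.3%). No match lay in the windows of APR1, APR2, APR3 or LSU2. Its share was larger on the iron list, at 9 of 17 (52.9%), with 7 of 23 flavonoid promoters (30.4%) and 3 of 20 clock promoters (15%). The heat-shock element core GAANNTTC was in 9.55% of all promoters and in 11 of 31 on the heat-shock list (35.5%), and the evening element core AAATATCT in 4.79% and in 6 of 20 on the clock list (30%). All 4 motifs were searched on both strands, and a match is a string of letters, not a bound site.

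Tau-class glutathione transferases (GSTU), which conjugate glutathione to foreign and oxidised compounds, were the third group. GSTU4 was at 4.25 and 3.02 FPKM in the libraries labelled atbmi1a and at 24.6 and 21.2 in atbmi1b (2.38 ± 0.14, adjusted p = 0.000646). GSTU9 was at 12.5 and 7.57 FPKM against 51.1 and 44.2 (2.17 ± 0.20, adjusted p = 0.00246). GSTU24 was at 41.2 and 20.8 FPKM against 125 and 117 (2.0 ± 0.26, adjusted p = 0.00699). Of 22 tested family members, a list likewise made after values were seen, 6 were called higher and 1 lower (median 0.42). The shares over all tested loci were 4.27% and 3.71% (median -0.03). The 1 called lower was GSTU20, at 368 and 261 FPKM against 148 and 173 (-0.95 ± 0.17, adjusted p = 0.0175). Near-identical GSTU copies stand in tandem, so reads may have been split between them and single members are uncertain.

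**Figure D3:**
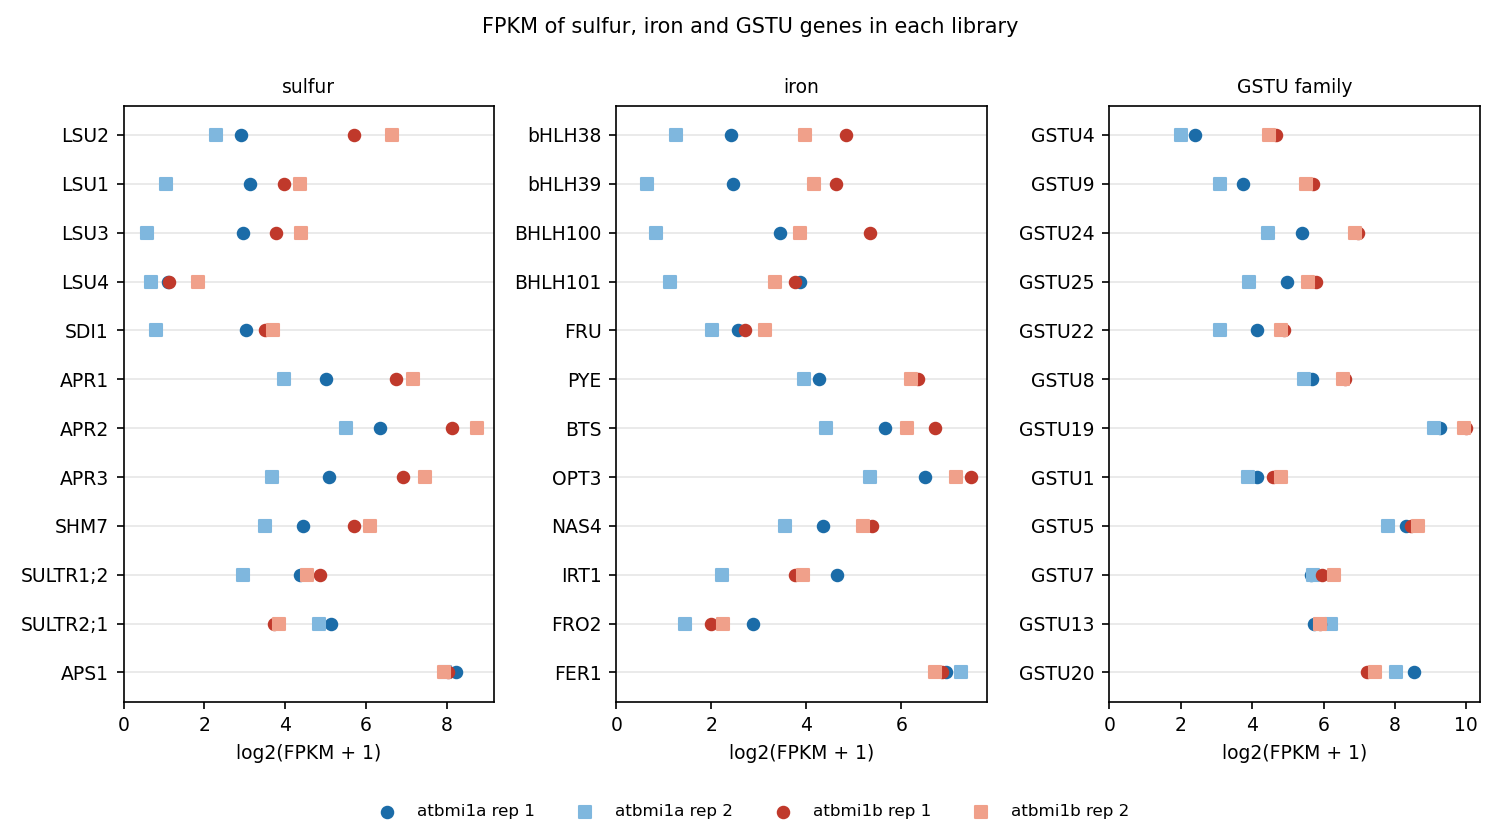
Level of 12 genes from each of the sulfur, iron and GSTU lists, log2(FPKM + 1) on the horizontal axis, with 1 marker per library (blue, labelled atbmi1a; red, atbmi1b; circle, replicate 1; square, replicate 2). LSU2, the APR genes, PYE, GSTU4 and GSTU9 show separate pairs, while IRT1, FRO2 and APS1 show overlapping ones.

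3 more genes were among the 10 largest called rises of loci with a symbol and at least 2 FPKM on average. UGT74E2, a glucosyltransferase that conjugates the auxin indole-3-butyric acid, was at 6.74 and 3.23 FPKM in the libraries labelled atbmi1a and at 51.7 and 62.0 in atbmi1b (3.33 ± 0.28, adjusted p = 0.00229). EC1.4, of a family of small secreted proteins known from the egg cell, was at 0.969 and 0.737 FPKM against 8.42 and 10.2 (2.47 ± 0.17, adjusted p = 0.000961). SAG13, a senescence-associated gene, was at 0.433 and 2.58 FPKM against 21.9 and 8.79, with a wide spread in both groups (2.73 ± 0.52, adjusted p = 0.0229). Among loci without a symbol, AT2G11405 was listed at 0 in both libraries labelled atbmi1a and stood at 8.72 and 10.05 FPKM in atbmi1b. AT2G05510, of a glycine-rich protein family, was at 23.3 and 26.48 FPKM against 168 and 207 (2.86 ± 0.13, adjusted p = 0.000135).

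Of 14 tested genes that are switched on by darkness and sugar shortage, 7 were called lower in atbmi1b and none higher. All tested loci were called lower at 3.71% and higher at 4.27%. The list's median log2 difference was -1.08, against -0.03 over all tested loci. ASN1, an asparagine synthetase induced in the dark, was at 39.4 and 66.5 FPKM in the libraries labelled atbmi1a and at 8.95 and 11.8 in atbmi1b (-2.21 ± 0.35, adjusted p = 0.0124). TPS10, of the class II trehalose-phosphate synthase-like proteins, was at 27.5 and 26.4 FPKM against 9.83 and 11.2 (-1.28 ± 0.11, adjusted p = 0.00229). DRM1, a dormancy-associated gene, was at 63.7 and 59.4 FPKM against 14.5 and 21.8 (-1.73 ± 0.26, adjusted p = 0.011). TPS11 was at 45.1 and 31.3 FPKM against 7.69 and 11.4 (-1.89 ± 0.30, adjusted p = 0.013). DIN10, TPS8 and DIN3 completed the calls, and without replicate 1 labelled atbmi1a those of DIN10 (adjusted p = 0.101) and TPS8 (0.104) were lost. Among members not called, DIN9 was at 2.74 and 2.76 FPKM against 3.32 and 7.21, above in both atbmi1b libraries.

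2 β-xylosidases, enzymes that trim xylan and arabinan in the cell wall, are on none of the lists and were among the 10 largest called decreases of loci with a symbol. BXL1 was at 206 and 167 FPKM in the libraries labelled atbmi1a and at 29.4 and 49.9 in atbmi1b (-2.25 ± 0.27, adjusted p = 0.00568). BXL2 was at 44.9 and 35.6 FPKM against 6.17 and 8.63 (-2.30 ± 0.18, adjusted p = 0.00165). BBX27, a B-box zinc finger protein, was at 36.6 and 31.9 FPKM against 7.53 and 8.0 (-2.0 ± 0.12, adjusted p = 0.000646). The serine carboxypeptidase-like gene scpl31 was at 13.0 and 11.2 FPKM against 1.37 and 1.6 (-2.40 ± 0.18, adjusted p = 0.00155). MRN1, the marneral synthase of triterpene metabolism, was at 9.23 and 5.99 FPKM against 0.457 and 0.900 (-2.35 ± 0.41, adjusted p = 0.0168). ATCTH, a CCCH zinc finger protein, was at 56.4 and 30.2 FPKM against 9.42 and 10.2 (-1.97 ± 0.36, adjusted p = 0.0189). PR1, the pathogenesis-related marker of salicylic acid signalling, was at 22.5 and 4.76 FPKM in the libraries labelled atbmi1a and was listed at 0 in both atbmi1b libraries, so no fold is given.

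Light-signalling genes moved in both directions. Of 16 tested, 4 were called higher (4.27% of all tested loci were) and 4 lower (3.71%). PIF4, a bHLH factor that promotes elongation growth and is destabilised by phytochrome B, was at 37.0 and 36.1 FPKM in the libraries labelled atbmi1a and at 10.5 and 7.96 in atbmi1b (-1.89 ± 0.16, adjusted p = 0.00229). The photoreceptor genes PHYA, CRY1 and CRY2 were called lower as well (CRY1 not without replicate 1 labelled atbmi1a, adjusted p = 0.0618), PHYA at 47.3 and 48.7 FPKM against 29.4 and 31.3 (-0.65 ± 0.09, adjusted p = 0.00886). PHYB, which encodes the main red-light receptor of green plants, was called higher, at 17.04 and 15.9 FPKM against 25.1 and 30.3 (0.71 ± 0.12, adjusted p = 0.0136). HYH and HY5, related bZIP factors that promote light responses, were called higher along with COP1, the E3 ligase that targets HY5. HYH was at 79.8 and 93.5 FPKM against 203 and 270.0 (1.43 ± 0.16, adjusted p = 0.00488).

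Calls among flavonoid and anthocyanin genes were in 1 direction. Of 18 tested, 6 were higher (4.27% of all tested loci were) and none lower (3.71%) in atbmi1b. The median log2 difference was 0.74, against -0.03 over all tested loci. UGT78D2, a flavonoid 3-O-glucosyltransferase, was at 27.5 and 24.0 FPKM in the libraries labelled atbmi1a and at 60.7 and 87.5 in atbmi1b (1.47 ± 0.17, adjusted p = 0.0053). 4CL3, a coumarate ligase at the entry of the pathway, was at 14.2 and 6.70 FPKM against 40.3 and 41.4 (1.95 ± 0.29, adjusted p = 0.0101). CHI, CHIL, F3H and MYB111 were the other calls, the last not without replicate 1 labelled atbmi1a (adjusted p = 0.0701). The pathway's first committed enzyme, CHS, was at 244 and 141 FPKM against 245 and 271 and was not called (0.47 ± 0.24, adjusted p = 0.276). Both atbmi1b libraries lay above both libraries labelled atbmi1a at 11 of the 18 (24.8% of all tested loci). They lay below at 2 (29.6%), DFR (-0.49 ± 0.29, adjusted p = 0.348) and MYBL2. MYBL2 just missed the threshold, at 17.9 and 13.3 FPKM against 2.94 and 8.32 (-1.44 ± 0.36, adjusted p = 0.053).

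Nuclear photosynthesis genes were called lower at 13 of 48 (3.71% of all tested loci were) and higher at none (4.27%), mostly by small amounts. The list's median was -0.38, against -0.03 over all tested loci. In 38 of the 48 both atbmi1b libraries lay below both libraries labelled atbmi1a, where 29.6% of all tested loci did, and in 2 above. LHCB1.4, a chlorophyll-binding antenna protein of photosystem II, had the largest called decrease, at 981 and 1208 FPKM against 396 and 419 (-1.42 ± 0.22, adjusted p = 0.0121). LHCA4, an antenna protein of photosystem I, was at 3189 and 3803 FPKM against 2120.0 and 2109 (-0.72 ± 0.13, adjusted p = 0.017). LHCB genes are near-identical copies, so reads may be shared among them.

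Among 17 tested circadian clock genes 5 were called higher (4.27% of all tested loci were) and 1 lower (3.71%). The morning factors LHY and CCA1 were both higher, LHY at 173 and 145 FPKM in the libraries labelled atbmi1a and at 295 and 357 in atbmi1b (1.03 ± 0.12, adjusted p = 0.00498). GI, which peaks toward evening and links the clock to flowering, was at 5.61 and 4.33 FPKM against 10.9 and 13.3 (1.14 ± 0.14, adjusted p = 0.00576). RVE8 and LNK1, which act together as activators, were the other rises, and PRR7, a repressor of the morning factors, was the 1 called lower, at 23.4 and 26 FPKM against 14.6 and 13.0 (-0.80 ± 0.16, adjusted p = 0.0264). The labels give no hour of harvest, and its part in these results was not tested.

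**Figure D4:**
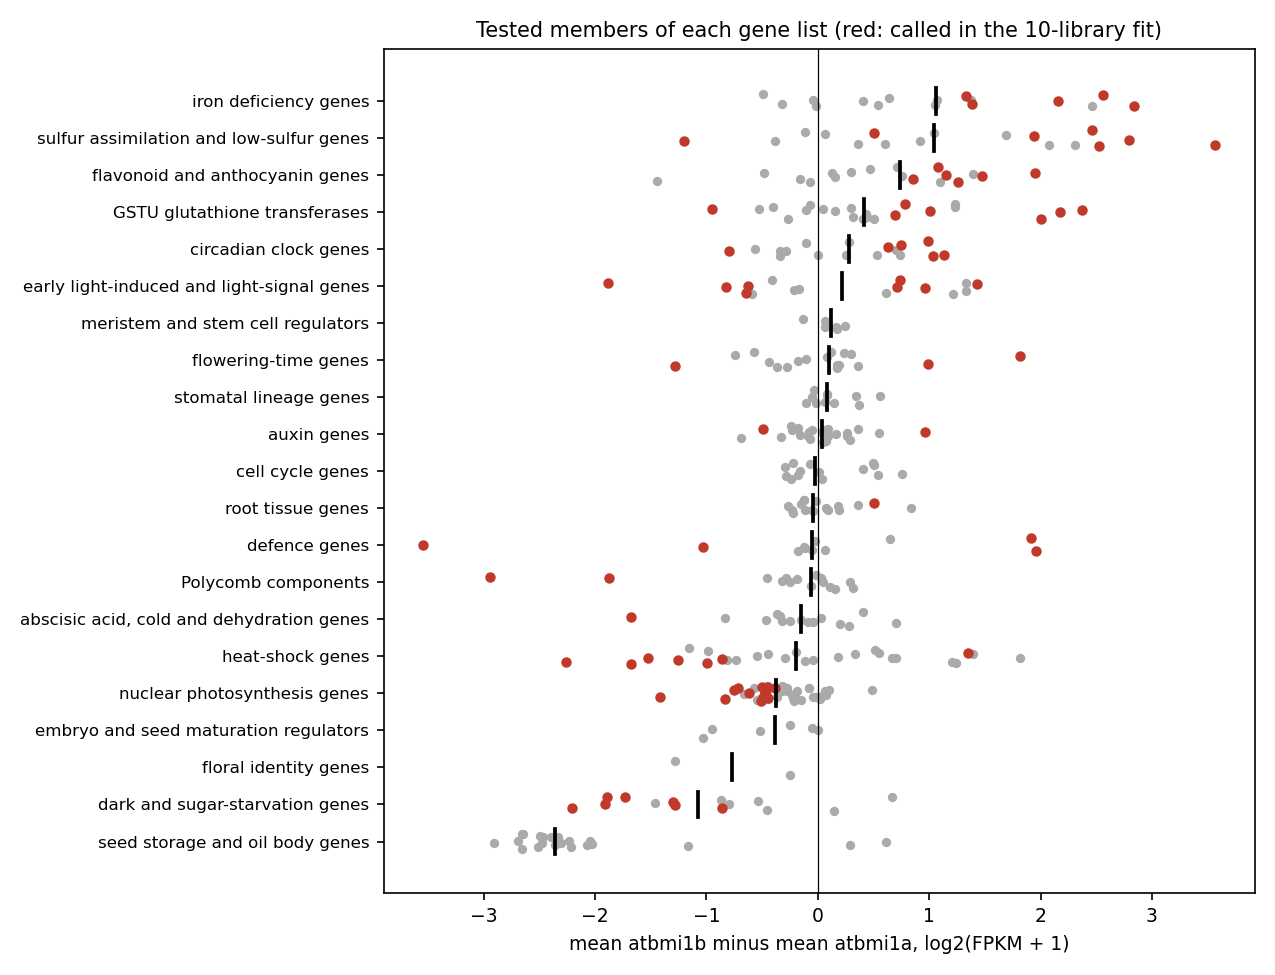
Log2 difference, mean atbmi1b minus mean atbmi1a, of every tested member of each gene list (points), with the list's median (black bar) and called members in red. The dark and sugar-starvation list has a median of -1.08 and 7 red points, all left of 0, and the flavonoid list a median of 0.74 and 6, all right of 0, while no seed storage gene is red.

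Heat-shock genes were called in both directions. Of 27 tested, 6 were called lower (3.71% of all tested loci were) and 1 higher (4.27%). The small heat-shock protein HSP17.4, a chaperone of the cytosol, was at 45.5 and 33.4 FPKM in the libraries labelled atbmi1a and at 9.40 and 5.72 in atbmi1b (-2.26 ± 0.26, adjusted p = 0.0053). AT2G29500, of the same family, was at 93.7 and 71.5 FPKM against 27.1 and 28.7 (-1.52 ± 0.18, adjusted p = 0.00543). HSFB2B, a class B heat shock factor, was the 1 called higher, at 10.9 and 6.63 FPKM against 18.3 and 29.2 (1.34 ± 0.26, adjusted p = 0.0226). The libraries labelled atbmi1a lay far apart on this list, summing to 2436 and 948 FPKM against 1598 and 1915, and replicate 1 was the highest of the 4 at 18 genes. In some genes it was replicate 2 that lay alone. HSFA2, the heat-inducible activator, was at 55.9 FPKM in replicate 1 and 8.27 in replicate 2, against 66.4 and 96.0 in atbmi1b (adjusted p = 0.162), and the disaggregase HSP101 was at 72.2 and 14.6 FPKM against 76.9 and 100.4 (adjusted p = 0.206). Without replicate 1 labelled atbmi1a 7 were called higher and 5 lower and the list's median moved from -0.20 to 0.30.

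**Figure D5:**
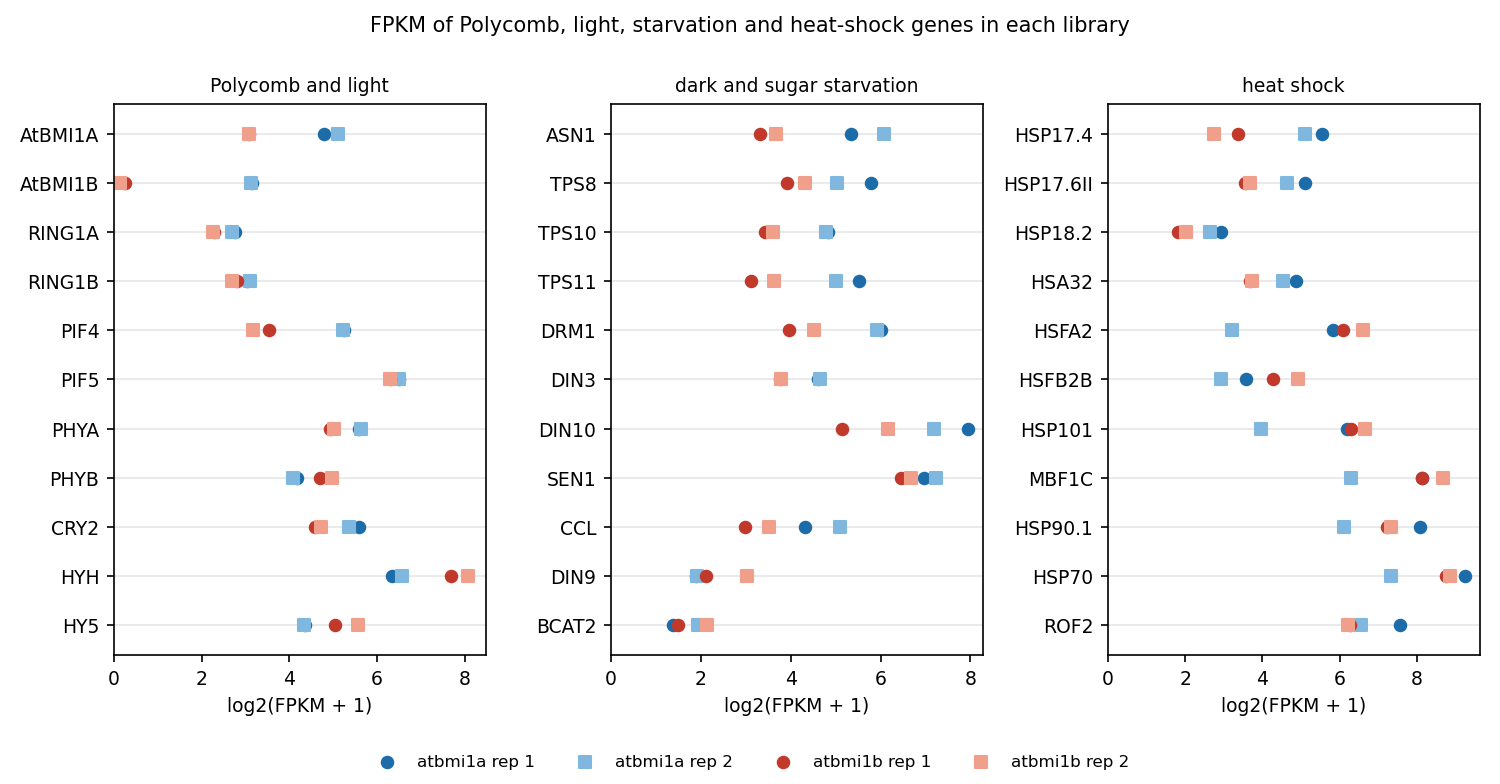
Level of 11 genes each from the Polycomb and light, the dark and sugar-starvation, and the heat-shock lists, log2(FPKM + 1) on the horizontal axis, with 1 marker per library (blue, labelled atbmi1a; red, atbmi1b; circle, replicate 1; square, replicate 2). PIF4, TPS10 and HSP17.4 show 2 separate pairs, and for HSFA2 and HSP101 replicate 2 labelled atbmi1a lies alone at the left.

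Among flowering-time genes, 2 of 18 were called higher (4.27% of all tested loci were) and 1 lower (3.71%). SMZ, an AP2-family repressor of flowering, was at 5.23 and 5.17 FPKM in the libraries labelled atbmi1a and at 16.8 and 25.6 in atbmi1b (1.81 ± 0.20, adjusted p = 0.00419), and TOE1, a repressor of the same family, was also higher (0.98 ± 0.14, adjusted p = 0.00995). SPL3, a promoter of the transition to flowering, was at 3.86 and 3.48 FPKM against 0.606 and 1.28 (-1.28 ± 0.23, adjusted p = 0.0175). No stomatal lineage gene of 11, no cell cycle gene of 14 and no meristem regulator of 6 was called, and the 2 tested floral identity genes were not called either. The auxin list had 1 call each way among 24, PIN5 higher and PIN7 lower (PIN7 not without replicate 1 labelled atbmi1a, adjusted p = 0.0717), and the root list had 1 of 17, SCR higher.

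Defence and stress hormone genes gave a mixed picture. PAD3 and CYP71A13, enzymes of camalexin synthesis, were called higher, PAD3 at 1.27 and 1.17 FPKM in the libraries labelled atbmi1a and at 7.04 and 8.27 in atbmi1b (1.96 ± 0.18, adjusted p = 0.00229). PDF1.2, a defensin used as a jasmonate marker, was called lower with PR1, at 2.06 and 1.78 FPKM against 0.451 and 0.406 (-1.03 ± 0.21, adjusted p = 0.0283), but not without replicate 1 labelled atbmi1a (adjusted p = 0.0587). These were the 4 calls among 11 tested, where 7.98% of all tested loci were called. Of 15 tested abscisic acid, cold and dehydration genes, COR413IM1, a chloroplast inner membrane protein of the cold response, was the only call, at 5.90 and 4.55 FPKM against 1.25 and 0.667 (-1.68 ± 0.20, adjusted p = 0.00548).

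FPKM sums ran from 792416 to 848221, depth relative to replicate 1 labelled atbmi1a, read from the steps between low values, from 1 to 1.24, and between 5115 and 5220 loci were at 0. Across the 18756 tested loci the atbmi1b libraries correlated at 0.987 with each other, and the libraries labelled atbmi1a at 0.952 with each other, no more than the 0.953 to 0.964 between genotypes. The median difference between replicates was 0.114 on the log2 scale in atbmi1b and 0.186 in the libraries labelled atbmi1a.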

How the data were processed

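Seedlings at 10 DAG of 5 genotypes gave 10 RNA-seq libraries, extracted with a Qiagen RNeasy kit, per the labels' protocols. TAIR10 was the build, and FastQC, TopHat, Cufflinks and Cuffdiff were run by the authors, per the submitters' processing notes (versions not given in the sources used here). What the authors deposited is FPKM per locus; the unit was read from the tools and the values, and no read counts were used, so depth is known only relatively.

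The fixed main test was limma 3.58.1 in R 4.3.3 (eBayes with trend) on log2(FPKM + 1) of the 4 single-mutant libraries, at loci averaging 1 FPKM or more, with Benjamini-Hochberg adjustment over all 18756. Because it called nothing, the rule for named genes was applied to the planned fit over all 10 libraries: the 10 called loci with a symbol of largest change in each direction, averaging 2 FPKM or more across the 4 libraries and with no overlap between groups, the 3 AtBMI1 genes, up to 4 called genes per list with the lowest adjusted p, and 8 seed genes as a check of atbmi1a replicate 1. Members and lists were chosen with earlier results of these data known. The sulfur, iron and GSTU lists, and genes named outside the rule, were chosen after their values were seen. Replicate numbers were not used to pair the libraries (correlation of the deviations of same-numbered libraries -0.199). With 2 libraries a group, its sign shows only which libraries lie together, so this does not exclude a pairing. Replicate 2 labelled atbmi1a correlated at 0.964 with atbmi1b replicate 1, against 0.953 to 0.954 for the other pairs between genotypes. The labels name no pairing. Loci listed at 0 in a group get no fold. Symbols come from RefSeq (TAIR10.1), which matched 26177 of 27086 loci; 270 loci are merged entries of overlapping genes, where single-gene values are uncertain. Figures were drawn with matplotlib 3.10.9 in Python 3.11.15. The alternatives tried were other scalings, filters and pseudocounts, leaving out libraries, library weights and a replicate block.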

Additional observations from a re-analysis of the deposited data

How the results depend on the processing

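With the 4 libraries alone, limma called 0 loci under median-ratio or quantile scaling, with no filter or a minimum of 5 FPKM, with a pseudocount of 0.1, without the trend, and without organelle or seed loci. Leaving out 1 library gave 0 to 602 higher and 0 to 578 lower calls (0 to 288 and 0 to 344 past 1 on the log2 scale, 0 to 280 at loci whose atbmi1a libraries differ by more than 1); the values above 0 came from leaving out atbmi1a replicate 1 (602 and 443) or 2 (488 and 578), where the lone library is assumed to vary like the other pair. The replicate block called 0 loci (2802 at an unadjusted p under 0.05, lowest adjusted p 0.247) and a crossed block, added after seeing the data, 0 (3613).

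Counts below are higher, lower, higher past 1, lower past 1, and at loci whose atbmi1a libraries differ. The 10-library fit gave 800, 696, 228, 168 and 19. The 8 mutant libraries gave 563, 483, 196, 145 and 11. Added after seeing the data were library weights (514, 387, 199, 141 and 20) and quantile scaling (889, 665, 249, 158 and 20). The 10-library fit gave 1077, 859, 353, 336 and 292 without atbmi1a replicate 1, 717, 847, 289, 367 and 291 without its replicate 2, 228, 117, 161, 72 and 5 without atbmi1b replicate 1, and 93, 82, 74, 67 and 0 without its replicate 2. Without atbmi1a replicate 1 the log2 differences of CRA1 (0.235), CRU3 (0.160), SESA1 (0.059) and OLEO1 (0.370) turned from lower to higher in both the 4- and the 10-library fit and were not called. With 1 library left out of the 4, they ran from -5.62 to 0.235, -5.46 to 0.160, -4.49 to 0.059 and -5.66 to 0.370; all 4 were called lower without atbmi1a replicate 2, in both fits. Values for named genes under alternatives were set against the 4-library fit, which called none of these genes. Of 1243 such values, 788 kept their direction and stayed uncalled, 447 became called and 8 turned. The cause of these changes was not tested. With 2 libraries a group, small differences are not detectable.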

Other observations

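Loci near the mutated genes were looked at after the calls had been seen. Within 50 kb of AtBMI1A, 5 of 17 tested loci were called lower in atbmi1b and none higher (29.4%, against 7.98% of all tested loci), and within 1000 kb 35 of 351 were called (9.97%), 20 higher and 15 lower. They include the photosystem II gene PSBW next to AtBMI1A. WRKY21 (AT2G30590), a WRKY transcription factor and one of the nearest, was at 33.1 and 26.7 FPKM in the libraries labelled atbmi1a and at 13.6 and 13.9 FPKM in atbmi1b (log2 difference -1.06 ± 0.17 SE, adjusted p = 0.0144, limma with 10 libraries). AT2G30600 was at 30.6 and 27.1 FPKM against 9.31 and 15.5 (-1.19 ± 0.21, adjusted p = 0.0168). Within 50 kb of AtBMI1B, 4 of 24 were called higher and 1 lower (20.8%). Among these, GAUT6 (AT1G06780) was at 9.52 and 8.88 FPKM against 14.4 and 12.1. Its direction is opposite to that of AtBMI1B itself.

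PP2-A5 and LOX4, a phloem protein 2 family member and a lipoxygenase of jasmonate synthesis, stood apart in the other library labelled atbmi1a. PP2-A5 was at 2.95 FPKM in replicate 1 and 78.8 in replicate 2, against 16.4 and 7.01 in atbmi1b, and LOX4 was at 1.39 and 44.7 against 13.5 and 5.0. Neither was called.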
